A study of Homo sapiens with 12 samples.

Results

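The 9 genes described here encode the main parts of the tight junction in luminal breast epithelium: the claudins CLDN1, CLDN3, CLDN4, CLDN7, CLDN8 and CLDN12, the membrane protein occludin (OCLN) and the scaffold proteins ZO-1 (TJP1) and ZO-3 (TJP3). They were listed by name and matched by gene identifier, 9 of the 57820 genes in the tables. All 9 passed the filter on low counts in every comparison. Tight junctions seal the space between neighbouring epithelial cells. Claudins span the membrane and set which ions and small molecules pass, occludin runs beside them in the same strands, and the ZO proteins tie the strands to the actin skeleton. Luminal breast cells, which line the milk ducts, are known for claudin-rich junctions, and the loss of several claudins marks a separate, claudin-low class of breast tumours.

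RNA was sequenced from T47D-MTVL, a luminal breast cancer line (T47D) that carries a luciferase reporter under the MMTV promoter, in 6 groups of 2 libraries. All groups were kept in medium with charcoal-treated serum and none was given the progestin R5020, per the labels. Poly(A) RNA was taken after transfection of control siRNA (siCtrl) or of siRNA to PADI2 (siPADI2), and chromatin-associated RNA after the same 2 treatments. The protocols do not give the share of transfected cells. The other 2 poly(A) groups carried transfected, HA-tagged RNA polymerase II (RNAP2) that resists alpha-amanitin, either wild type (WT) or with the arginine at position R1810 replaced (R1810A), for 24 hours, then 12 hours in 6 µg/ml alpha-amanitin, a mushroom toxin against which endogenous RNAP2 is not protected. PADI2 converts arginine residues to citrulline, and the comparisons ask what happens to RNA levels when the enzyme is depleted or when this RNAP2 arginine is missing.

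Library totals ranged from 44318629 to 132764704 counts in poly(A) RNA and from 2720080 to 7040541 in chromatin RNA, so chromatin values were less precise. Levels are counts per 1000000 of the scaled library (CPM). In poly(A) RNA PADI2 was at 24.0 and 22.6 CPM with siCtrl against 1.83 and 1.88 CPM with siPADI2. In chromatin RNA PADI2 was at 34.9 and 32.5 against 8.52 and 14.2 CPM. That was a smaller fall (log2 fold change −1.57 against −3.65), and the difference was called (1.87, edgeR adjusted p = 3.46e-04). PADI2 stood at 48.9 and 50.7 CPM in the WT libraries and at 3.13 and 2.35 CPM in those labelled R1810A, although that label names no PADI2 siRNA. These are therefore called the libraries labelled R1810A, and each direction drawn from them carries that doubt. Of 16 luminal markers, 15 reached 1 CPM in both libraries of each poly(A) group. Their summed level was 17148 to 18294 CPM after siCtrl and 9097 to 9505 CPM after siPADI2. It was 15670 to 16674 CPM in WT and 9908 to 10854 CPM in the libraries labelled R1810A. After siPADI2 the largest falls in CPM were those of PRLR (3533 to 543.5) and KRT19 (3581 to 1055). MUC1, SPDEF, KRT18 and CDH1 did not pass the test there, and EPCAM rose. The basal keratins KRT5 and KRT14 and the mesenchymal regulators ZEB1, ZEB2 and SNAI2 were under 0.1 CPM in each poly(A) group. Other genes of those marker lists were present, with FN1 at 89.4, COL1A1 at 66.2 and MYLK at 10.0 CPM after siCtrl. Over the poly(A) libraries the 9 basal markers summed to 11.7 to 30.1 CPM and the 11 mesenchymal markers to 105.1 to 250.2 CPM.

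The genes lie on 7 chromosomes (hg19, coordinates of the deposited tables). CLDN1 (ENSG00000163347.5) occupies chromosome 3 from 190023490 to 190040264 on the minus strand. Its neighbour CLDN16, the kidney claudin of magnesium transport, starts 66 bases beyond that end, so the 2 claudin genes point away from each other. CLDN3 (chromosome 7, 73183328 to 73184600, minus strand, 1 exon) and CLDN4 (chromosome 7, 73213872 to 73247014, plus strand) are 29.3 kb apart. CLDN8 (chromosome 21, 31586324 to 31588391, minus strand) also has 1 exon, and no other tested gene lay within 100 kb of it. CLDN7 lies on chromosome 17 (7163222 to 7167302), CLDN12 on chromosome 7 (90013035 to 90142716), OCLN on chromosome 5 (68788119 to 68853931), TJP1 on chromosome 15 (29991571 to 30261068) and TJP3 on chromosome 19 (3708107 to 3750811). Exons of other genes on the same strand cover 10.79% of the CLDN7 and 16.27% of the CLDN12 exonic bases, and fragments there were not assigned, so their levels are lower bounds. OCLN has a near-identical partial copy on the same chromosome, so its counts are uncertain.

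RefSeq promoters (GRCh38.p14) were found for 8 of the 9 genes. The 100 bases before the start are shown for CLDN1, which fell in both poly(A) comparisons, and for the adjacent CLDN3 and CLDN4, which passed the test in neither, because these 3 hold most of the claudin RNA. Capitals mark the GC box, GGGCGG, on either strand, which 45% of 35116 promoters of 300 bases hold. Also searched on both strands was the E-box CACCTG of the SNAI and ZEB repressors, which 20.6% of promoters hold.
CLDN1: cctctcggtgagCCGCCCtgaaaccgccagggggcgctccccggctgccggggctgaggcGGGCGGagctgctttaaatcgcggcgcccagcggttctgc
CLDN3: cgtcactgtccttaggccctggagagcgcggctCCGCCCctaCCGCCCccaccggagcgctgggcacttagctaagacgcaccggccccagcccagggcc
CLDN4: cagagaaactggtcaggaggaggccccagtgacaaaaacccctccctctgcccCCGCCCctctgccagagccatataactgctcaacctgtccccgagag
The CLDN1 window has 2 GC boxes, the CLDN3 window 2 and the CLDN4 window 1, and no E-box letters stand in these 3 windows. Over the full 300 bases, CLDN3 had 6 GC boxes and 1 E-box, and CLDN1 and CLDN4 had no E-box. Neither the TATAAA box (11.5% of promoters) nor the Grainyhead word AACCGGTT (0.134%) occurs in a promoter of the 8 genes. The windows are chr3:190322447-190322546 (minus strand), chr7:73770271-73770370 (minus strand) and chr7:73830896-73830995 (plus strand). A match describes letters and is not evidence of binding.

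Per kilobase of exon (RPKM), the 6 claudins named here held 98.4% to 99.1% of the summed level of 23 claudins in each poly(A) library. The length counts every annotated exon of a gene (4693 bases for CLDN4, 3663 for CLDN1 and 1273 for CLDN3). The shares and their order depend on this length, and the transcripts used in these cells were not determined. CLDN4 led after siCtrl, with 38.8% and 38.4% of the claudin RPKM, and CLDN1 and CLDN3 held 20.1% to 24.9% each. CLDN7 followed with 13.2% and 13.1%. CLDN12, a claudin without the usual ZO-binding end, held 1.85% and 2.09%, and CLDN8, a barrier claudin best known from the kidney, 0.318% and 0.353%. In the siPADI2 libraries the CLDN1 share was 12.7% and 13.2% and the CLDN4 share 43.6% and 44.1%. The WT libraries had another order, with CLDN1 at 51.2% and 49.4%, CLDN4 at 22.8% and 24.1% and CLDN8 at 1.84% and 1.70%. In the libraries labelled R1810A CLDN4 was again first (36.0% and 37.8%) and CLDN1 next (33.4% and 31.3%). In both experiments the CLDN1 share was below, and the CLDN4 share above, that of the respective control libraries.

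**Figure D1:**
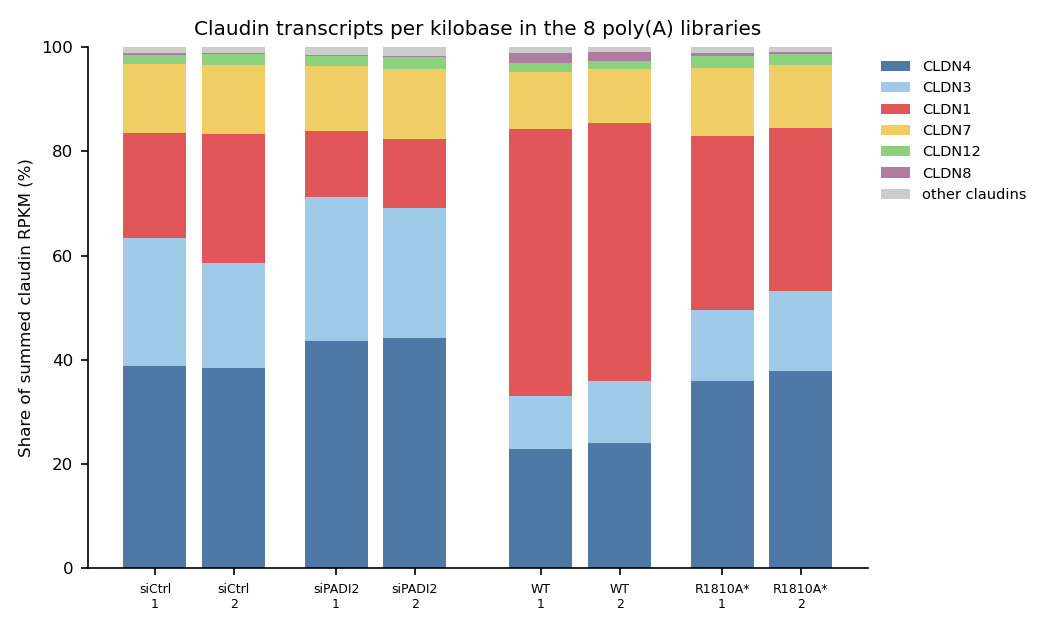
Stacked bars give the share (%) of each claudin in the summed claudin RPKM of the 8 poly(A) libraries, 1 bar per library, with the claudins other than the 6 named ones in grey (R1810A* marks the libraries so labelled). The red CLDN1 segment is smaller after siPADI2 (12.7% and 13.2%) than after siCtrl (20.2% and 24.9%), and largest in WT (51.2% and 49.4%).

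With all 8 poly(A) libraries on 1 scale, CLDN1 ran from WT (855.5 ± 26.6 CPM, SD, n = 2) through the libraries labelled R1810A (409.1 ± 3.57) and siCtrl (356.4 ± 39.9) to siPADI2 (182.4 ± 18.3), with no overlap between neighbours in that order. CLDN8 had the same order: 17 ± 0.046, 3.54 ± 0.352, 3.00 ± 0.121 and 1.52 ± 0.219 CPM, again without overlap. CLDN3 and CLDN4 had the opposite arrangement of experiments. CLDN3 was at 129.5 ± 24.7 CPM after siPADI2 and 123.1 ± 21.5 after siCtrl, which overlapped, against 65.9 ± 10.5 in WT and 63.7 ± 8.55 in the libraries labelled R1810A, which overlapped too. CLDN4 stood at 790.7 ± 92.3 (siPADI2) and 784.5 ± 32.8 CPM (siCtrl), then 599.7 ± 53.6 (labelled R1810A) and 512.8 ± 49.3 (WT). For CLDN7, CLDN12, OCLN, TJP1 and TJP3 the highest group mean of each was at most 148.4 CPM, and TJP3 ran from 89.2 ± 2.59 (WT) to 141.3 ± 8.02 CPM (siPADI2). WT and siCtrl differ in transfection, toxin and experiment, which cannot be told apart, and no test was made between them.

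**Figure D2:**
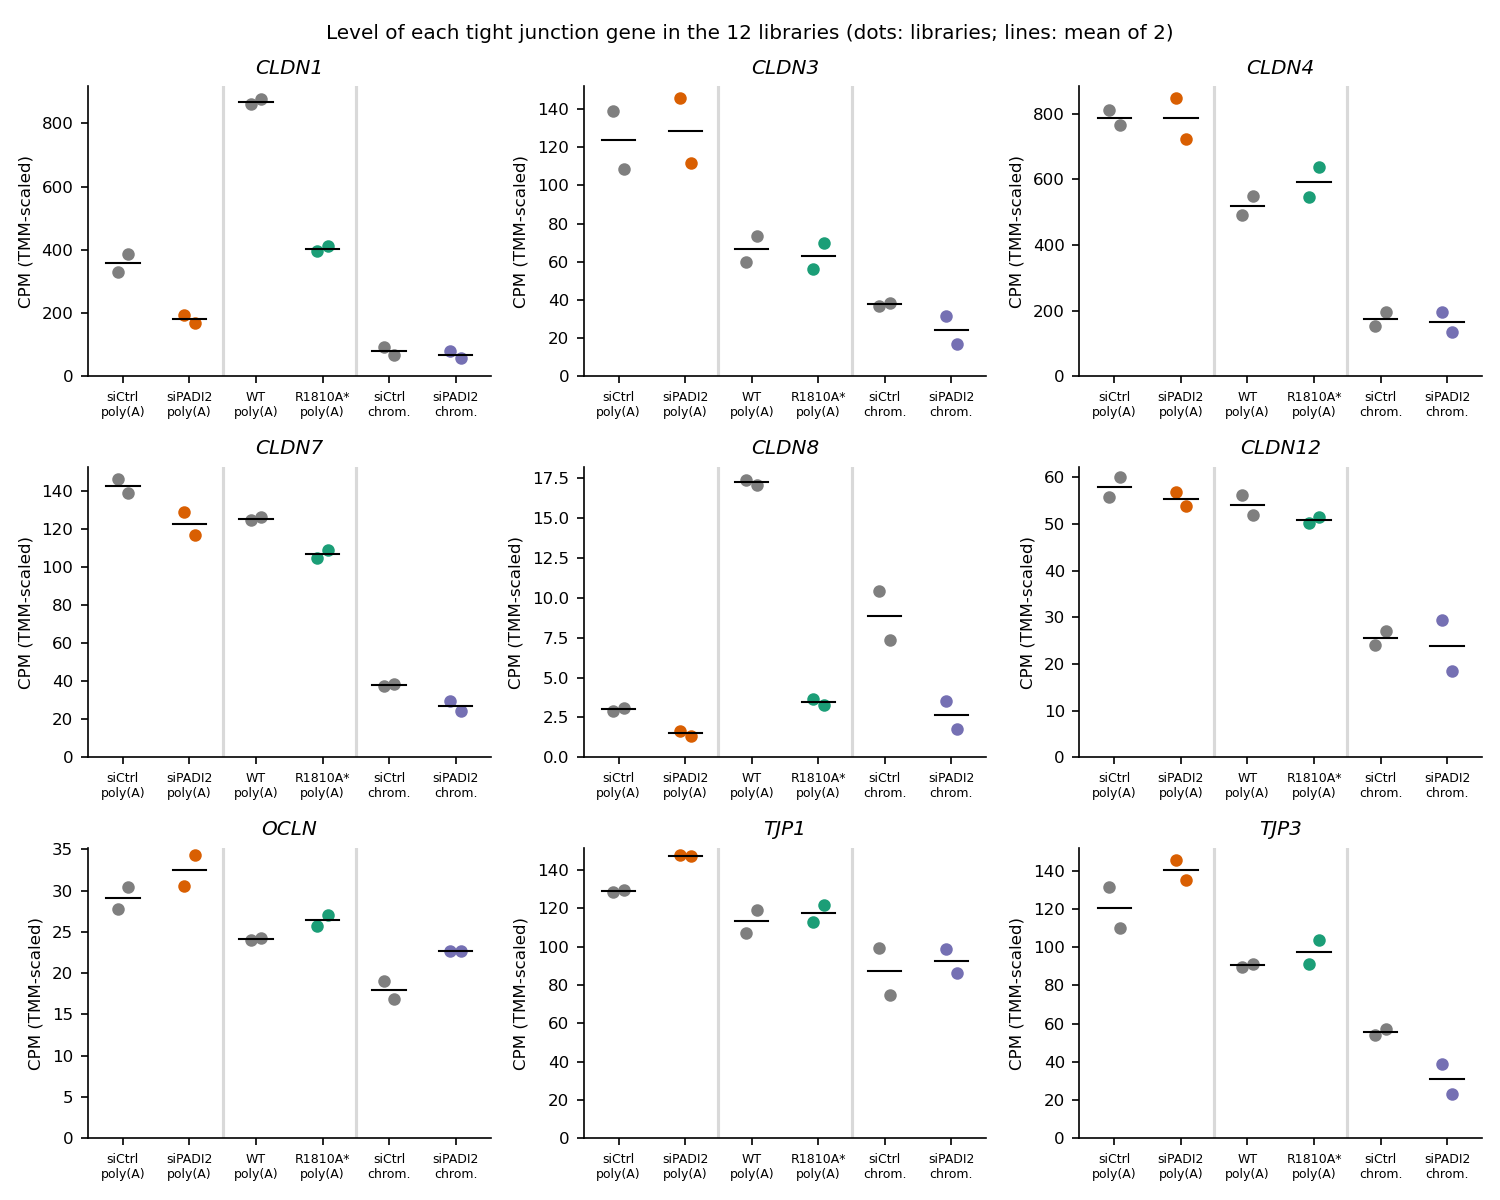
Each panel plots the TMM-scaled CPM of 1 gene by group, with a dot per library and a line at the mean of 2, scaled within each experiment (vertical lines part the 3 experiments, and R1810A* marks the libraries so labelled). CLDN1 and CLDN8 are lower after siPADI2 and in the libraries labelled R1810A than in the respective controls without overlap, and the CLDN4 dots of siCtrl and siPADI2 overlap.

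After siPADI2 in poly(A) RNA, CLDN1, CLDN8 and CLDN7 fell, TJP1 and TJP3 rose slightly, and CLDN3, CLDN4, CLDN12 and OCLN did not pass the test. The 3 falls and 2 rises among 9 genes stand beside all genes tested, of which 56.7% of 18720 were called, 28.8% higher and 27.9% lower, so the count is close to that of all genes. The members' median log2 fold change was −0.0036 and that of all genes 0.0050. Scaling by total counts shifted the median gene by 0.183 and gave 7398 higher and 3636 lower genes, against 5395 and 5225. In bulk RNA, fewer cells of a type and less RNA per cell cannot be told apart.

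CLDN1, a barrier-forming claudin, was measured at 329.8 and 386.3 CPM with siCtrl against 193.7 and 168.9 CPM with siPADI2. Both siPADI2 libraries were below both controls. The fall was 1.98-fold (log2 fold change −0.98 with SE 0.0908, by edgeR's quasi-likelihood test, adjusted p = 2.08e-11). CLDN8 stood at 2.93 and 3.10 CPM with siCtrl against 1.66 and 1.36 CPM with siPADI2, also without overlap, a 2.01-fold fall (−1.01, SE 0.170, edgeR adjusted p = 3.39e-06). Both genes were called under each alternative tried in this comparison.

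CLDN7, which is also found along the lateral membrane, had 146.3 and 138.7 CPM with siCtrl against 128.6 and 116.6 CPM with siPADI2. The groups did not overlap, and the fall was small (−0.22, SE 0.0832, edgeR adjusted p = 0.0254). The call was lost without siCtrl replicate 1 (−0.18), without siPADI2 replicate 2 (−0.14), without the filter on low counts (−0.18) and with total counts (−0.03). CLDN4, the most abundant claudin per kilobase in these 4 libraries, was at 811.6 and 764.6 CPM with siCtrl against 848.9 and 723.3 CPM with siPADI2. The groups overlapped (log2 fold change −0.0036, SE 0.0907, edgeR adjusted p = 0.977).

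CLDN3, which with CLDN4 binds a bacterial enterotoxin, had 139.0 and 108.4 CPM with siCtrl against 145.7 and 111.6 CPM with siPADI2, again overlapping (0.06, edgeR adjusted p = 0.79). The first number of each pair was the higher for CLDN3, and leaving out siCtrl replicate 1 gave a call (0.245, edgeR adjusted p = 0.0216) while leaving out siCtrl replicate 2 gave −0.114. CLDN12 was at 55.7 and 60.1 against 56.8 and 53.9 CPM (−0.07, edgeR adjusted p = 0.529). Occludin was at 27.8 and 30.4 CPM with siCtrl against 30.6 and 34.3 CPM with siPADI2 (0.15, edgeR adjusted p = 0.168).

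The scaffold gene TJP1 was at 128.8 and 129.7 CPM with siCtrl against 147.9 and 147.2 CPM with siPADI2, a rise of 0.19 on the log2 scale (SE 0.0813, edgeR adjusted p = 0.043). The pairs were tight, and yet the call was lost without any 1 of the 4 libraries (0.185 to 0.200) and with DESeq2 size factors (0.184). TJP3 stood at 131.2 and 109.9 CPM with siCtrl against 145.7 and 135.2 CPM with siPADI2 (0.22, SE 0.0874, edgeR adjusted p = 0.0289). Its call was lost without siCtrl replicate 2 (0.095), without siPADI2 replicate 1 (0.164) and with the DESeq2 test (0.215). Neither scaffold gene overlapped between the groups, and neither did OCLN, which was not called. The share of all genes without overlap was not counted.

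Between WT and the libraries labelled R1810A, CLDN8, CLDN1 and CLDN7 were lower. By edgeR 0 of the 9 genes were called higher, also 0 at an unadjusted p under 0.05 and 0 with DESeq2. This count depends on the setting. With replicate number in the fit (a replicate block), CLDN4, OCLN and TJP3 were called higher, and total counts also called a member higher. Over all genes 46.9% of 19202 were called, 22.6% higher and 24.3% lower. The median log2 fold change was −0.0845 over the 9 genes and −0.021 over all genes. CLDN8 stood at 17.4 and 17.1 CPM in WT and 3.68 and 3.30 CPM in the libraries labelled R1810A. The fall was 4.93-fold (−2.30, SE 0.0886, edgeR adjusted p = 7.63e-10). CLDN1 stood at 859.5 and 876.8 CPM in WT and 394.7 and 412.8 CPM in the libraries labelled R1810A, a 2.15-fold fall (−1.10, SE 0.0745, edgeR adjusted p = 8.93e-08). Both genes were called under each alternative tried.

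CLDN7 stood at 124.6 and 126.1 CPM in WT and 104.5 and 108.6 CPM in the libraries labelled R1810A (−0.23, SE 0.0580, edgeR adjusted p = 0.00463), and its call was lost without WT replicate 1 (−0.247). CLDN4 had 491.0 and 549.2 against 545.4 and 639.3 CPM, which overlapped (0.19, edgeR adjusted p = 0.122). CLDN3 had 60.0 and 73.5 against 56.0 and 70.0 CPM (−0.08, edgeR adjusted p = 0.763), and CLDN12 56.2 and 52.0 against 50.2 and 51.5 CPM (−0.09, edgeR adjusted p = 0.258). These 3 claudins did not pass the test, although CLDN12 did not overlap between the groups.

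OCLN was at 24.0 and 24.3 CPM in WT and 25.7 and 27.1 CPM in the libraries labelled R1810A (0.13, edgeR adjusted p = 0.124). The OCLN groups did not overlap. TJP1 had 107.4 and 119.1 against 113.1 and 121.9 CPM (0.05, edgeR adjusted p = 0.553). TJP3 had 89.7 and 91.3 against 90.9 and 103.5 CPM (0.10, edgeR adjusted p = 0.237). Without R1810A replicate 1, CLDN4 (0.302) and TJP3 (0.198) were called higher. The experiments share no libraries.

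**Figure D3:**
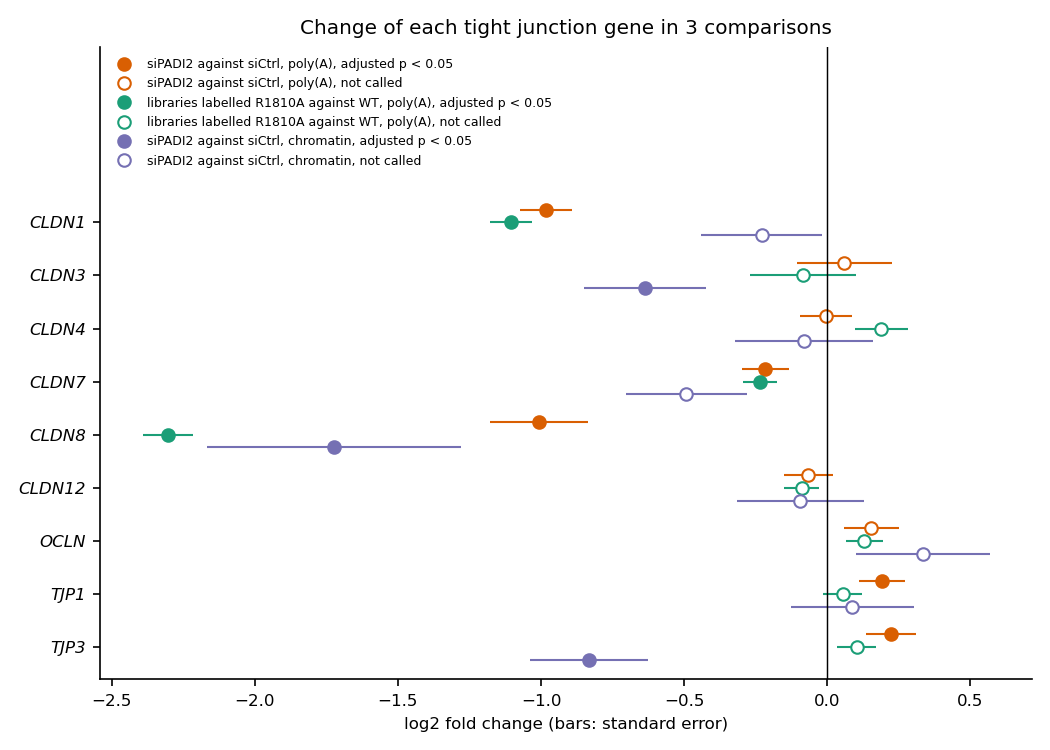
The log2 fold change of each gene is plotted with its standard error for siPADI2 against siCtrl in poly(A) RNA (orange), the libraries labelled R1810A against WT (green) and siPADI2 against siCtrl in chromatin RNA (purple), with filled dots where the adjusted p is under 0.05. CLDN1 (−0.98 and −1.10) and CLDN8 (−1.01 and −2.30) lie left of the other genes in both poly(A) comparisons.

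The difference between the siPADI2 and R1810A effects was tested in 1 fit of the 8 poly(A) libraries. Of 19884 genes 26.1% were called, 11.8% with a higher and 14.3% with a lower value after siPADI2, and 1 of the 9 genes was among them. CLDN8 fell less after siPADI2 than between WT and the libraries labelled R1810A (difference 1.27 on the log2 scale, SE 0.173, edgeR adjusted p = 9.83e-05). The WT libraries held 17.2 ± 0.246 CPM of CLDN8 and the siCtrl libraries 3.01 ± 0.120 CPM (SD, n = 2), so the 2 falls began from different levels. For CLDN1 the difference was 0.10 (SE 0.123, edgeR adjusted p = 0.614).

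In chromatin RNA after siPADI2, CLDN8, TJP3 and CLDN3 were called lower and 0 of the 9 higher (edgeR, also 0 at an unadjusted p under 0.05 and 0 with DESeq2). Among 33879 genes 32.4% were called, 12.2% higher and 20.1% lower. The median log2 fold change was −0.23 for the 9 genes and 0.028 for all genes. The deposited counts cover exons only. CLDN8 had 10.4 and 7.36 CPM with siCtrl against 3.55 and 1.77 CPM with siPADI2, from 64 and 50 against 10 and 5 counts. The groups did not overlap, and the fall was 3.30-fold (−1.72, SE 0.443, edgeR adjusted p = 8.96e-04).

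TJP3 had 53.8 and 57.3 CPM with siCtrl against 39.0 and 23.4 CPM with siPADI2 (−0.83, SE 0.207, edgeR adjusted p = 5.74e-04). CLDN3 had 37.0 and 38.6 against 31.6 and 17 CPM (−0.64, SE 0.213, edgeR adjusted p = 0.0132). In both genes siPADI2 replicate 2 was the lowest library. Without it none of the 3 was called (CLDN8 −1.31, TJP3 −0.503, CLDN3 −0.252). CLDN3 also lost its call without siCtrl replicate 5 (−0.644), with total counts (−0.53), with the DESeq2 test (−0.641) and in a fit of all 8 siRNA libraries (−0.636).

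CLDN1 stood at 93.1 and 67.6 CPM with siCtrl against 78.8 and 58.1 CPM with siPADI2 in chromatin RNA. The groups overlapped (−0.23, SE 0.210, edgeR adjusted p = 0.415). CLDN7 had 37.6 and 38.7 against 29.8 and 24.4 CPM (−0.49, edgeR adjusted p = 0.0572), the latter without overlap. CLDN4 had 154.8 and 194.9 against 195.9 and 134.6 CPM, CLDN12 24.0 and 27.1 against 29.5 and 18.4 CPM, and TJP1 99.4 and 74.9 against 99.0 and 86.1 CPM. These 3 overlapped and lay within 0.1 of 0 on the log2 scale. OCLN had 19.1 and 16.9 against 22.7 and 22.7 CPM (0.33, edgeR adjusted p = 0.275), also without overlap.

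The chromatin effect moved with GC content, the share of G and C in the longest transcript. Split into 10 bins by GC content, the 1501 genes of the lowest bin (23.1% to 38.5% GC) had a median log2 fold change of 0.272 and the 1501 of the highest bin (61.4% to 83.9%) −1.02, which a correction for GC in each library brought to −0.156 and −0.0317. CLDN3 (69.15% GC) then stood at 0.355 and TJP3 (63.16%) at 0.139, neither called. CLDN4 (57.48%) moved to 0.656 and CLDN7 (59.59%) to 0.372, also not called. CLDN8 (37.23%) was called with the correction (−2.14), and CLDN1 (41.45%) became called (−0.60, edgeR adjusted p = 0.0413). Among the 9 genes these 2 also had the largest falls in poly(A) RNA, which describes 1 setting and is not a test. That setting left the lowest bin, whose GC range includes CLDN8, below 0 (−0.156). Without the correction CLDN1 was not called (−0.23, edgeR adjusted p = 0.415), and CLDN8 had only 10 and 5 counts after siPADI2. In the poly(A) comparisons the medians of the lowest and highest bins lay between −0.0423 and 0.138.

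**Figure D4:**
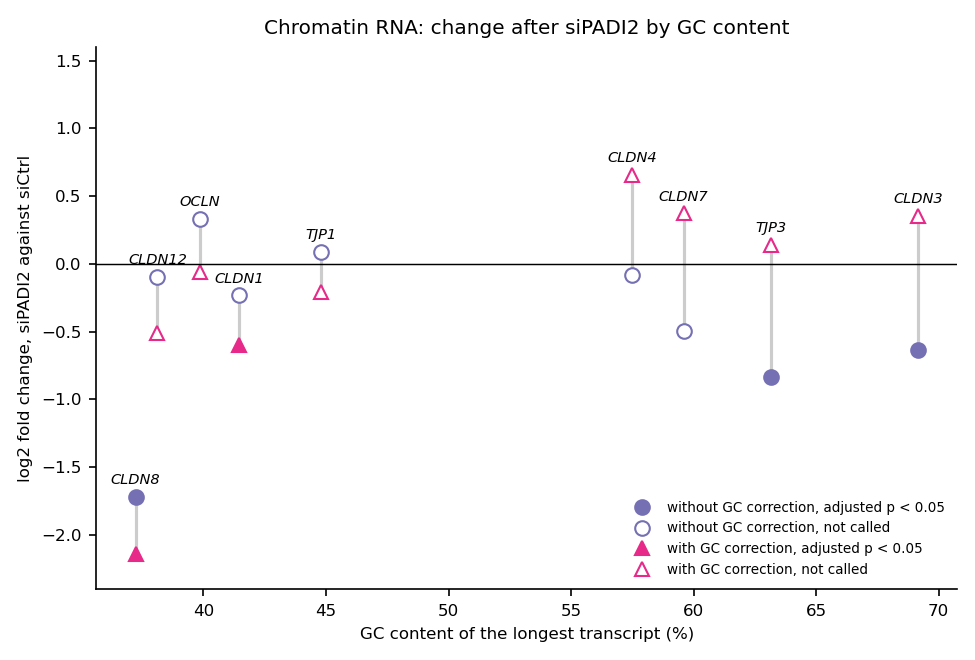
The log2 fold change in chromatin RNA (siPADI2 against siCtrl) of each gene is plotted against the GC content (%) of its longest transcript, as circles without and triangles with GC correction, filled where the adjusted p is under 0.05. The 4 genes above 55% GC move from below 0 to above 0, and CLDN8 stays at the bottom (−1.72 and −2.14).

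Chromatin libraries also held counts of genes nearly absent from poly(A) RNA. The 5 matched endothelial markers summed to 0.105 to 0.545 CPM over the poly(A) libraries. In chromatin RNA they summed to 67.9 to 69.6 CPM after siCtrl and 31.9 to 45.7 CPM after siPADI2. There 3 of them were called lower, VWF, CDH5 and CLDN5, beside 20.1% of all genes. VWF alone was still called with GC correction. The 5 immune markers summed to 0.621 to 1.44 CPM in poly(A) RNA and 76.6 to 106.1 CPM in chromatin RNA, where LYZ was called higher (1.25), also with GC correction (0.876). The 6 claudins held 58.1% to 72.1% of claudin RPKM there. The part of these counts in the low-count CLDN8 value was not tested.

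The siPADI2 effect was compared between chromatin and poly(A) RNA in 1 fit of 8 libraries, in which 8.05% of 44615 genes were called, 1.71% higher and 6.34% lower in chromatin. TJP3, which rose in poly(A) and fell in chromatin RNA, was called (difference −1.28, SE 0.386, edgeR adjusted p = 0.0167). The call was lost with GC correction (−0.141) and without siPADI2 poly(A) replicate 1 (−1.23) or 2 (−1.30), and without siPADI2 chromatin replicate 2 the difference was −0.698, still called. CLDN1 had a difference of 0.57 (SE 0.382, edgeR adjusted p = 0.548), CLDN3 −0.92 (edgeR adjusted p = 0.150) and CLDN8 −0.91 (edgeR adjusted p = 0.437). Without 1 library CLDN8 ran from −1.33 to −0.273, the latter without siPADI2 chromatin replicate 2, where CLDN3 was at −0.285. CLDN1 was called with DESeq2 size factors (0.928), the DESeq2 test (0.926), total counts (0.696) and GC correction (0.641), and without siCtrl poly(A) replicate 1 (0.896), siCtrl chromatin replicate 1 (1.03) or siPADI2 chromatin replicate 2 (0.989). CLDN3 was called with total counts (−0.767) and without siCtrl poly(A) replicate 1 (−0.845) or 2 (−0.988), siCtrl chromatin replicate 1 (−0.703) or siPADI2 chromatin replicate 1 (−1.23). This comparison depends on scaling: DESeq2 size factors gave 3002 higher and 3146 lower genes, against 763 and 2829, with a shift of 0.272 in the median gene.

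Among neighbours on the chromosome, CLDN16 moved with CLDN1 in poly(A) RNA. It stood at 1.54 ± 0.386 CPM (SD, n = 2) with siCtrl and fell to 0.623 ± 0.107 CPM with siPADI2 (−1.37, edgeR adjusted p = 2.33e-06). It was at 3.46 ± 0.0307 CPM in WT and 1.25 ± 0.0507 CPM in the libraries labelled R1810A (−1.46, edgeR adjusted p = 1.34e-06). In chromatin RNA CLDN16 rose (0.71, edgeR adjusted p = 0.00872), whereas CLDN1 was not called, but that rise was lost with GC correction (0.298), with the DESeq2 test, in the joint fit, and without siCtrl replicate 5 or siPADI2 replicate 2. The adjacent CLDN3 and CLDN4 passed the test in neither poly(A) comparison.

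METTL27, a methyltransferase-like gene 1.91 kb beyond CLDN4, rose after siPADI2 in poly(A) RNA (0.52, edgeR adjusted p = 3.38e-04), while CLDN4 did not pass the test. PIP5K1C, which makes the membrane lipid PIP2 and lies 7.63 kb from TJP3, fell in all 3 comparisons (−0.39, −0.37 and −1.93), the last at −0.925 and still called with GC correction. TJP3 itself rose in the first, was not called in the second and fell in the third. MARVELD2, which encodes the three-cell junction protein tricellulin 48.0 kb from OCLN, was called only in the R1810A comparison (−0.30, edgeR adjusted p = 0.00105), with no test of that difference. ABHD11, 30.1 kb from CLDN3, rose after siPADI2 in poly(A) RNA (0.22, edgeR adjusted p = 0.0419). In chromatin RNA CFAP69 near CLDN12 (0.65) and GTF2H2C near OCLN (0.85) rose and SLC2A4 near CLDN7 fell (−0.72), none of them called with GC correction (0.211, 0.462 and −0.0114). CTDNEP1, APBA3, AC022613.1, AC111152.3, RPS27P14 and NCAPGP2 did not pass the test where they were the nearest tested gene. The strand option of the counting assigns reads by strand, and CLDN1 and CLDN16 lie on opposite strands. How strictly the libraries kept strand was not measured, and CLDN16 was far below CLDN1 (1.54 against 358.1 CPM with siCtrl). Why these 2 genes moved together in poly(A) RNA was not tested.

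Over the 8 poly(A) libraries, the protein-coding genes with profiles most like CLDN1 included CIP2A (Pearson r = 0.998) and TYMS (0.996), of 12025 compared on log2(CPM + 0.5). TYMS encodes thymidylate synthase. CLDN8 was nearest to the matrix gene FBLN5 (0.997), the glycine-cleavage gene GLDC (0.997) and CASQ2 (0.997). CLDN4 was nearest to MIF (0.993), EMC10 (0.990) and ZFYVE1 (0.990), and TJP1 to TNRC6B (0.985), PFDN2 (0.984) and FAM129A (0.979). Among the members, CLDN1 and CLDN8 had r = 0.964 and CLDN3 and CLDN4 r = 0.943. The points share the difference between the 2 experiments, so these values are descriptions.

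Of the 18 other claudins, 7 were tested after siPADI2 in poly(A) RNA, with 1 higher and 3 lower. Over all genes 28.8% were higher and 27.9% lower there, and 22.6% and 24.3% in the R1810A comparison. CLDN15, a cation-channel claudin, rose from 9.57 ± 0.952 to 15.0 ± 0.384 CPM (0.66, edgeR adjusted p = 3.10e-06). CLDN16 and CLDN23 fell (−1.37 and −0.64). CLDN25, also counted as lower, had 5 and 19 counts after siCtrl and 0 and 0 after siPADI2. It passed the filter through its siCtrl libraries alone, so its fall is not independent of the filter. Against a floor of 3 counts over the group, the siCtrl mean was 11.6-fold higher, with the error of that mean left out. CLDN6, CLDN9 and CLDN11 did not pass the test (−0.11, −0.93 and −0.46). Without siCtrl replicate 2 only 1 was lower. The list's median was −0.64, also with CLDN25 set at that floor. Between WT and the libraries labelled R1810A, 0 of 6 were higher (edgeR, also 0 at an unadjusted p under 0.05 and 0 with DESeq2) and 2 lower, CLDN16 (−1.46) and CLDN11 (−0.87), with a median of −0.688. Without R1810A replicate 2 the lower count was 1. CLDN6, CLDN9, CLDN15 and CLDN23 did not pass the test. The group means of those tested were below 2 CPM in poly(A) RNA, except for CLDN15 and, in WT, CLDN16.

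In chromatin RNA 15 of the 18 other claudins were tested, with 1 higher (CLDN16) and 6 lower. Over all genes 12.2% were higher and 20.1% lower. The falls were CLDN9 (−2.13), CLDN2 (−1.97), CLDN19 (−1.54), CLDN5 (−1.45), CLDN14 (−0.97) and CLDN6 (−0.94). CLDN10, CLDN11, CLDN15, CLDN18, CLDN20, CLDN22, CLDN23 and CLDN25 did not pass the test. The list's median was −0.444, beside 0.028 over all genes. With GC correction 1 of the 6 was still called, CLDN9 (−1.12), the DESeq2 test called 3, and 3 were called without siCtrl replicate 5 or without siPADI2 replicate 1.

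The 12 other membrane proteins of the junction moved in both directions. After siPADI2 in poly(A) RNA, 4 of 11 tested were higher and 3 lower, with a median of 0.0216. Over all genes 28.8% were higher and 27.9% lower, against 22.6% and 24.3% in the R1810A comparison and 12.2% and 20.1% in chromatin RNA. ILDR1, an angulin of three-cell contacts, rose from 10.7 ± 0.0515 to 23.4 ± 1.38 CPM (1.13), and the virus receptor and adhesion gene CXADR from 53.3 ± 6.35 to 89.8 ± 2.71 CPM (0.75). ILDR2 rose from 0.104 to 0.282 CPM (1.37). The adhesion molecules ESAM (−1.44) and JAM2 (−1.36), and the polarity gene CRB3 (−0.26), fell. In the libraries labelled R1810A 4 of 11 were higher and 5 lower than in WT, with a median of −0.113, and the higher count was 2 without WT replicate 1 or R1810A replicate 2 and with the DESeq2 test. CLMP (0.79), ILDR1 (0.42) and CXADR (0.28) led the rises and ESAM (−0.71), JAM2 (−0.62) and the angulin LSR (−0.57) the falls. In chromatin RNA 0 of 12 were higher (edgeR, 2 at an unadjusted p under 0.05 and 0 with DESeq2) and 2 lower, LSR (−0.92) and ILDR1 (−0.87). The lower count was 0 with GC correction, with the DESeq2 test or without siPADI2 replicate 2, and 1 without siCtrl replicate 5.

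All 31 genes of the plaque and of cell polarity were tested in each comparison. Shares over all genes were 28.8% higher and 27.9% lower after siPADI2 in poly(A) RNA. They were 22.6% and 24.3% in the R1810A comparison and 12.2% and 20.1% in chromatin RNA. After siPADI2 in poly(A) RNA 10 rose and 7 fell (median 0.129), with 17 higher by total counts and 6 without siCtrl replicate 2 or either siPADI2 library. The rises were led by the angiomotin gene AMOTL1 (1.13), the kinase gene WNK4 (1.00) and afadin, AFDN (0.81). AMOTL1 was called in the other direction in the R1810A comparison (−0.76) and in chromatin RNA (−0.51). The chromatin fall of AMOTL1 was also called with GC correction (−0.562). PARD6B, a subunit of the PAR polarity complex, fell from 76.7 ± 14.3 to 28.9 ± 3.94 CPM (−1.41), followed by AMOTL2 (−0.87) and the Crumbs-complex scaffold PATJ (−0.75). Of the same genes 6 rose and 10 fell in the R1810A comparison (median −0.0454), led by CGNL1 (0.55), YBX3 (0.32) and PALS1 (0.32) among the rises and AMOTL2 (−1.18), PATJ (−0.97) and ARHGEF2 (−0.91) among the falls. In chromatin RNA AFDN rose (0.68) and 9 genes fell, led by PARD6A (−2.14), TBC1D2 (−2.03) and ARHGEF18 (−1.41). PARD6A (−1.17) and TBC1D2 (−1.14) were called with GC correction, and AFDN (0.451) and ARHGEF18 (−0.522) were not. AFDN was also not called without siCtrl replicate 5 or siPADI2 replicate 1, and 5 genes fell without siPADI2 replicate 2.

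Of the 17 adherens junction and desmosome genes, 7 rose and 6 fell after siPADI2 in poly(A) RNA (median −0.0387). Over all genes 28.8% were higher and 27.9% lower, against 22.6% and 24.3% in the R1810A comparison and 12.2% and 20.1% in chromatin RNA. The desmosome genes PPL (1.29) and DSC2 (1.23) and the adhesion gene NECTIN4 (0.86) led the rises. Desmoplakin, DSP (−0.86), p120-catenin, CTNND1 (−0.66), and plakoglobin, JUP (−0.56), fell. The libraries labelled R1810A had 7 higher and 6 lower (median 0.0226, 3 lower with total counts, without WT replicate 2 or without R1810A replicate 1), with DSC2 (1.65), PKP1 (1.35) and PPL (0.75) the largest rises and CTNND1 (−0.53), JUP (−0.35) and NECTIN2 (−0.35) the largest falls. In chromatin RNA 0 rose (edgeR, 1 at an unadjusted p under 0.05, 0 with DESeq2, and 1 without siCtrl replicate 1) and 6 fell, among them PPL (−0.91), EVPL (−0.91) and PKP1, which fell by 1.00. With GC correction 0 of the 6 were called, and PPL, called in opposite directions in the 2 RNA fractions, stood at −0.0512 in chromatin. In poly(A) RNA PKP1 was low, at 0.209 CPM in WT and 0.534 CPM in the libraries labelled R1810A.

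Of 22 transcription factors known to act on claudin or epithelial genes, 15 were tested after siPADI2 in poly(A) RNA. Of these 6 were higher and 3 lower (median 0.22). Over all genes 28.8% were higher and 27.9% lower, against 22.6% and 24.3% in the R1810A comparison and 12.2% and 20.1% in chromatin RNA. TWIST1, a driver of the epithelial-mesenchymal transition, rose from 0.577 ± 0.134 to 2.97 ± 0.559 CPM (2.45). KLF5 (1.17) and KLF4 (0.95) also rose. GRHL3, a Grainyhead factor of epithelial barriers, fell from 19.3 ± 0.231 to 5.75 ± 0.0137 CPM (−1.75), and OVOL2 (−0.46) and ELF3 (−0.44) fell. In the R1810A comparison 6 of 15 rose and 4 fell (median 0.0725), with TWIST1 (2.04), KLF4 (1.34) and ELF5 (0.73) among the rises and GRHL3 (−0.57), ELF3 (−0.51) and SP1 (−0.31) among the falls. In chromatin RNA ZEB2 (0.73) and GRHL1 (0.60) rose and 6 of 21 fell, led by OVOL1 (−1.68), SNAI1 (−1.57) and HNF4A (−1.21). TWIST1 did not pass the test there, at 9.63 CPM with siCtrl and 8.51 CPM with siPADI2 (−0.18). Without any 1 chromatin library 1 gene rose. With GC correction 0 rose and 3 fell, OVOL1 (−0.88) and HNF4A (−0.893) among them, and the DESeq2 test also gave 0 rises and 3 falls.

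**Figure D5:**
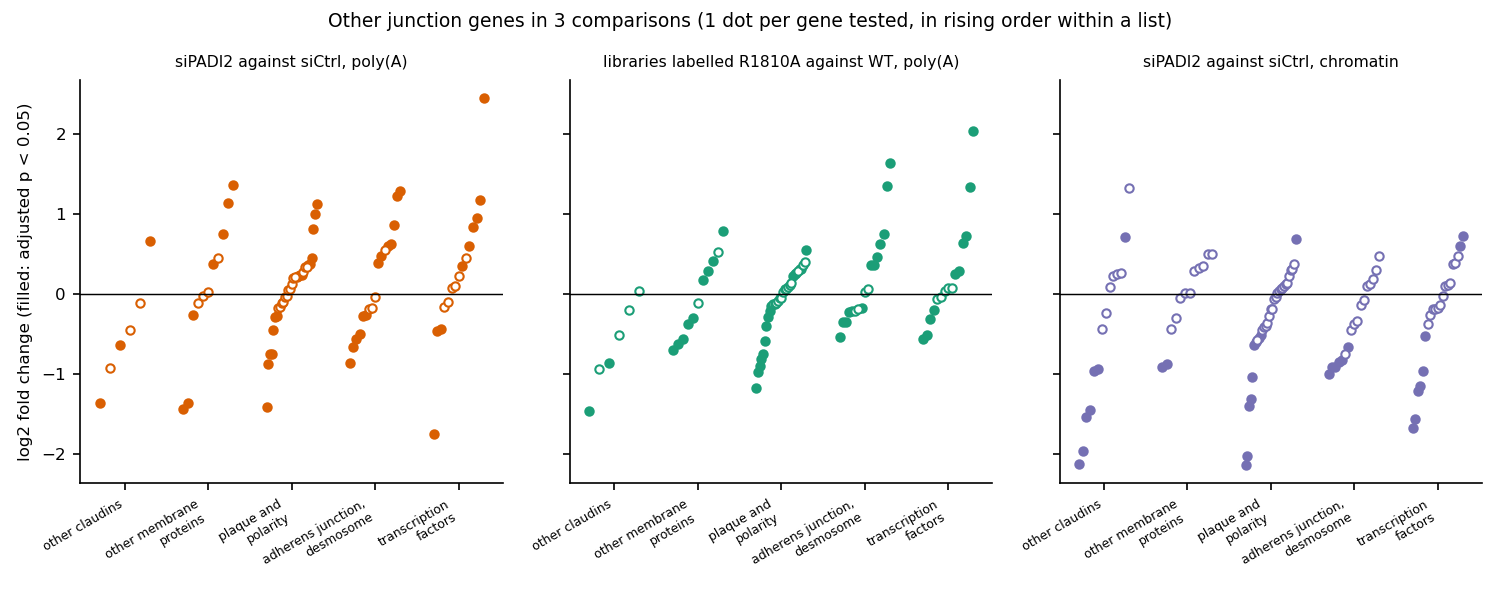
Each dot is the log2 fold change of 1 tested gene of the 5 lists in the 3 comparisons, in rising order within a list, filled where the adjusted p is under 0.05 (CLDN25 is left out because both siPADI2 poly(A) libraries hold 0 counts). The dots of each list lie on both sides of 0 in poly(A) RNA, with TWIST1 highest (2.45 and 2.04), and mostly below 0 among called genes in chromatin RNA.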

How the data were processed

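The deposited tables hold raw counts of fragments per gene, 1 table for each of 12 libraries. Per the submitters' processing notes, the tools were Trimmomatic, STAR and featureCounts. Per the file headers, featureCounts was version 1.5.1 for poly(A) and 1.4.6-p2 for chromatin RNA, with strand option 2 and GENCODE 19 exons on hg19, without multi-mapping reads or reads over several genes. Symbols came from GENCODE 29 for 52338 of 57820 identifiers.

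Each comparison was fitted on its 4 libraries with the quasi-likelihood test of edgeR 4.0.16 (TMM, filterByExpr, robust) under R 4.3.3. P-values were adjusted by Benjamini-Hochberg over every gene tested, with a threshold of 0.05. Differences of effects were interaction contrasts over 8 libraries. The SE is the size of the log2 fold change over the square root of F. CPM uses TMM-scaled totals, RPKM divides it by exonic kilobases. Alternatives were other scalings, no filter, DESeq2 1.42.0, GC correction, a replicate block, joint fits and leaving out each library. The test was tested on simulated data, where it recovered fewer of the 2-fold changes at chromatin than at poly(A) depth, and the recovery required of it was lowered after this was seen. GC medians leave out genes under a mean count of 50.

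Genes named were the 9 members, PADI2, up to 3 rises and 3 falls per list and comparison, all other tested claudins, tested neighbours within 100 kb and the 3 nearest profiles of 4 members, of which 1 is not reported here. MARVELD2 is both a neighbour and a list gene. The members and lists were chosen with earlier results of these data known. No label says that replicates are separate cultures, and the p-values cover the spread among these libraries alone, possibly technical. No pair of libraries agreed within sampling noise (chi-square per degree of freedom 3.55 to 91.7).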

Additional observations from a re-analysis of the deposited data

Results flagged for a closer look

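For 2 of the 9 genes the effect differed between experiments by a test of the difference itself. In poly(A) RNA CLDN8 fell less after siPADI2 than in the R1810A comparison, a difference of 1.27 on the log2 scale (edgeR interaction contrast, adjusted p = 9.83e-05, 2 libraries a group). All 4 libraries with lowered PADI2 lay below their controls, but the WT libraries held 17.4 and 17.1 CPM and the siCtrl libraries 2.93 and 3.10 CPM. The experiments also differ in transfection and toxin, which cannot be told apart from the starting level.

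The siPADI2 effect on TJP3 was −1.28 in chromatin relative to poly(A) RNA (edgeR interaction contrast, adjusted p = 0.0167). TJP3 is rich in GC (63.16%), and with GC correction the difference was −0.141 and was not called. The call was also lost without either siPADI2 poly(A) library, and without siPADI2 chromatin replicate 2 the difference was −0.698. Both chromatin siPADI2 libraries were below both controls, and both poly(A) siPADI2 libraries were above both controls.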

How the results depend on the processing

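CLDN1 and CLDN8 kept direction and call in both poly(A) comparisons under all alternatives run; small effects did not. After siPADI2 in poly(A) RNA, 2 members were called higher, but 1 with DESeq2 size factors or the DESeq2 test and 0 to 2 without 1 library. CLDN4 changed sign with total counts (0.178), no filter (0.0327), GC correction (0.0492), the replicate block with GC correction (0.0467) and the joint fit (0.0115), and CLDN12 with total counts (0.116). Without 1 library CLDN4 ran from −0.127 to 0.113 and CLDN3 from −0.149 to 0.245. In the R1810A comparison 0 members were called higher, but 1 with total counts and 0 to 2 without 1 library. There CLDN3 ran from −0.254 to 0.0811 and TJP1 from −0.0225 to 0.144.

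In chromatin RNA 10962 genes were called, but 3992 with DESeq2, 5179 with GC correction and 4846 to 7988 without 1 library, and 0 to 3 members were lower. CLDN4 (0.0148) and CLDN12 (0.01) changed sign with total counts. With GC correction CLDN3 (0.355), CLDN4 (0.656), CLDN7 (0.372), TJP3 (0.139), OCLN (−0.0624) and TJP1 (−0.209) did. Without 1 library CLDN1 ran from −0.482 to 0.0166, CLDN4 from −0.382 to 0.170, CLDN12 from −0.477 to 0.211 and TJP1 from −0.141 to 0.303. The siPADI2 minus R1810A difference of CLDN1 ran from −0.012 to 0.222. For chromatin minus poly(A) RNA, 3592 genes were called, but 6148 with DESeq2 size factors, 5740 with total counts, 5737 with GC correction and 2249 to 6804 without 1 library. Members higher there were 0, but 1 with DESeq2 size factors, total counts or the DESeq2 test, 2 with GC correction and 0 to 1 without 1 library. Members lower were 1, but 2 with total counts, 0 with GC correction and 0 to 2 without 1 library. CLDN3 turned to 0.389 there with GC correction. The cause was not tested.

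Same-numbered libraries deviated together (correlation 0.357 for siPADI2, 0.829 for R1810A), but there were only 2 pairs and no label of a shared batch, so they count as unpaired. With the replicate block, 11513 genes were called after siPADI2 (10620 without) and 12582 in the R1810A comparison (9010 without). In the latter 3 members were then higher (CLDN4, OCLN and TJP3), also with GC correction. With the block, 1 member was lower in the difference of these effects, CLDN4, also with GC correction, with which 8091 genes were called against 5196. For chromatin RNA, no paired analysis was possible because its groups share only replicate number 1. Leaving out a library leaves 1 in its group, assumed to vary like the rest. Chromatin depth limits CLDN8, with 5 to 64 counts.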

Other observations

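In poly(A) RNA KRT19 stood at 3581 ± 487.6 CPM (SD, n = 2) with siCtrl and fell to 1055 ± 109.0 CPM with siPADI2 (log2 change −1.76, edgeR adjusted p = 2.92e-16) and KRT8 from 2279 ± 193.6 to 1465 ± 133.0 CPM (−0.64, edgeR adjusted p = 2.60e-07), while KRT18 did not pass the test (−0.17). Of the 16 luminal markers 11 fell and 1 rose after siPADI2, beside 27.9% lower and 28.8% higher over all genes. The risen one was the adhesion gene EPCAM, whose protein binds CLDN7, at 171.3 ± 14.8 and 263.8 ± 6.40 CPM (0.62, edgeR adjusted p = 5.64e-08). In the R1810A comparison 10 fell and 2 rose, beside 24.3% lower and 22.6% higher over all genes. EPCAM was at 0.36 and E-cadherin, CDH1, at 0.36. CDH1 did not pass the test after siPADI2 (−0.18, edgeR adjusted p = 0.0744).

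Mesenchymal genes of the claudin-low list did not rise as a group. After siPADI2 in poly(A) RNA 1 of 6 tested rose, TWIST1, and 3 fell, FN1 (−1.50), CDH2 (−1.41) and VIM (−0.95). Over all genes 28.8% were higher and 27.9% lower there, and 22.6% and 24.3% in the R1810A comparison. In the R1810A comparison TWIST1 rose and THY1 (−1.66), CDH2 (−1.12) and FN1 (−1.05) fell. THY1 and CDH2 were low, at 0.905 and 1.11 CPM in WT, against 188.5 CPM for FN1. CDH2 was at 0.649 CPM with siCtrl. TWIST1 stayed at 2.97 ± 0.559 CPM or less in all poly(A) groups, and was not called in chromatin RNA after siPADI2 (−0.18). KRT8, KRT18, KRT19 and CDH1 were named here after their values were seen.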
